A study of Rattus with 6 samples.

Results

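The nuclear-encoded subunits of the respiratory chain and ATP synthase were examined in H9C2 cells, a line derived from embryonic rat heart, that carried a control plasmid (3 libraries) or a plasmid for RBM25 overexpression (3 libraries). RBM25 is a nuclear RNA-binding protein that acts with the U1 snRNP in splice site choice, and the libraries compare gene levels with and without extra RBM25. Members were taken by symbol from the protein-coding genes that the count table does not place on the mitochondrial chromosome: names starting with Nduf for complex I, Sdha to Sdhd for complex II, names starting with Uqcr for complex III, with Cox4 to Cox8 for complex IV, and with Atp5 for complex V. This gave 94 of the 20742 genes listed, of which 8 (Ndufaf1 to Ndufaf8) are complex I assembly factors and 86 are subunits or genes named after one. Plasmid, dose, time after transfection and culture of origin were not given in the sources used here, so every p-value rests on library-to-library spread that could be purely technical.

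The chain passes electrons from NADH (through complex I) and succinate (through complex II) to coenzyme Q, then through complex III and cytochrome c to oxygen at complex IV. Complexes I, III and IV pump protons across the inner mitochondrial membrane, and complex V, the ATP synthase, lets them back to make ATP. Complex II is wholly nuclear-encoded, whereas the other complexes combine nuclear-encoded subunits with a few made from mitochondrial DNA. Heart muscle depends on this system more than most tissues, and several complex IV subunits have a separate heart and skeletal muscle form.

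All samples were of 1 cell line, with no label for batch or clone. Libraries held 25543849 to 33130256 counted reads. Rbm25 was at 49.2, 44.5 and 45.7 counts per 1e+06 reads (CPM) in the control libraries and at 56.3, 55.9 and 60.1 CPM in the RBM25 libraries (log2 fold change 0.30 ± 0.047 SE, edgeR adjusted p = 0.0011). This call was lost without control replicate 2 (adjusted p = 0.0842). RBM25 replicate 3 stood apart within its group: the chi-square of gene counts divided by its degrees of freedom came to 6.22 and 4.79 when it was set against replicates 1 and 2, and to 3.21 between those. Among muscle genes, Myod1 (60.4 ± 1.39 CPM in controls; SD, n = 3) and Nkx2-5 were present. Tnnt2 was at 101 to 112 CPM in controls and at 94.1, 94.6 and 137 CPM with RBM25, highest in replicate 3, while the adult heart genes Myh7 and Tnni3 were at or below a mean of 0.0509 CPM in either group and Nppa and Myf5 were not listed. Of the markers of other cell types, the leukocyte list (2 of 6 listed, summed level 5.37 to 6.54 CPM over the libraries) was carried by Cd3e and the epithelial list (24.97 to 29.9 CPM) by Krt8. The 5 endothelial markers summed to 0.627 to 0.884 CPM. Of the fibroblast markers only 5 were listed and 4 tested (summed level 22999 to 25270 CPM over the libraries). Among them the collagen genes Col1a1 and Col1a2 were abundant.

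In the comparison of RBM25 overexpression with control, none of these genes passed the test across all genes. Of the 94, 87 had enough reads to be tested, and 0 passed the threshold (edgeR quasi-likelihood test, Benjamini-Hochberg adjusted p under 0.05 over all 12882 tested genes), against 0.404% of all tested genes. DESeq2 also called 0. The smallest adjusted p of a member was 0.17, for Atp5mc1. At an unadjusted p under 0.05 there were 2 of 87, Atp5mc1 lower and Atp5mk higher, or 2.30%, against 11.2% of all tested genes (6.4% higher, 4.78% lower). This count depended on single libraries: it was 6 higher and 2 lower without RBM25 replicate 3, and 1 higher and 3 lower without control replicate 1. Without control replicate 3 or RBM25 replicate 2 it was 0 higher and 1 lower, as it was with DESeq2, and with a correction for gene length it was 0 higher and 2 lower. The count over all tested genes moved as well, from 1441 of 12882 to 1957 of 13098 without RBM25 replicate 3. Without control replicate 1 it was 1485 of 13142, without control replicate 3 1149 of 13066, and without RBM25 replicate 2 1107 of 13074. With DESeq2 it was 913 of 12882, and with the length correction 1459 of 12882. The control and RBM25 libraries did not overlap for 9 of 87 (10.3%), 5 higher and 4 lower, against 16.2% of all tested genes (8.31% higher, 7.94% lower).

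The fold changes were small and their errors narrow. Among the 79 tested subunits the median log2 fold change was -0.0061 (36 positive, 43 negative), against -0.0021 for all tested genes, of which 48.8% were positive. The size of the log2 fold change was under 0.05 for 69 of the 79 subunits (87.3%) and for 43.3% of all tested genes, and under 0.1 for 77 of 79. The 95% interval of the fold change lay wholly within 1.2-fold in either direction for 76 of the 79 subunits, against 63.3% of all tested genes. The 3 subunits with wider intervals, Cox6a2, Cox7a2l2 and Cox7b2, were the least abundant of the tested complex IV genes, and their intervals reached beyond 1.2-fold.

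**Figure D1:**
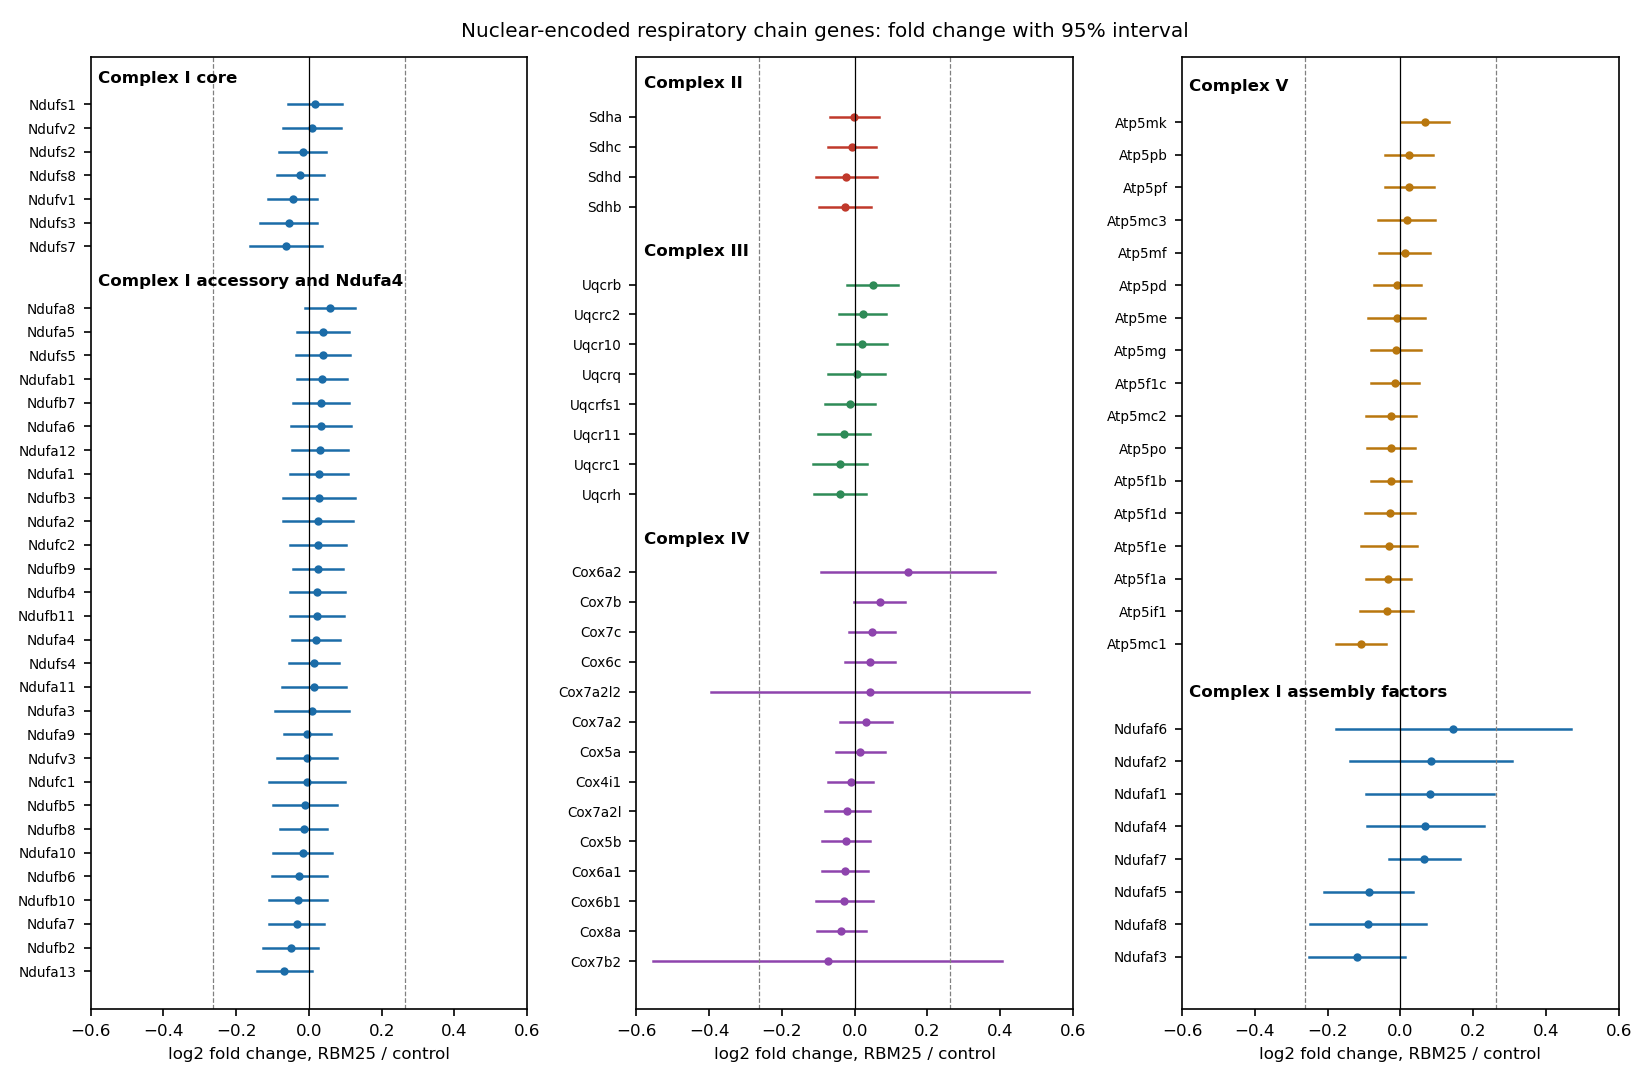
Log2 fold change (RBM25 over control) of the 87 tested genes, by complex and, for complex I, by role. Points are edgeR estimates, bars their 95% intervals, the solid line marks no change and the dashed lines a 1.2-fold change either way; all but 5 bars (Cox6a2, Cox7a2l2, Cox7b2, Ndufaf2, Ndufaf6) lie between the dashed lines, and Atp5mc1 (-0.18 to -0.039) has the only interval that lies wholly below the solid line.

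The subunits shared properties that the choice by name did not use. Their levels per gene length were high: in control libraries the median was 144 FPKM (fragments per kilobase of gene per 1e+06 fragments, the authors' values) against 5.43 for all tested genes, and 67 of 79 were above the 90th percentile of tested genes, 58.4 FPKM. The length per gene used in FPKM, recovered from the deposited counts and FPKM values, had a median of 0.814 kb in the subunits. It was 3.49 kb for the 12483 tested genes where it could be recovered. Replicates were also close, with a median coefficient of variation of 2.89% over the 87 tested members and 5.32% over all tested genes, although abundant genes vary less in sequencing counts whatever their function. The 79 subunits lay on 20 chromosomes, at most 12 of them on 1 chromosome (chromosome 1). The share of counted reads on the 86 subunit genes was 1.38 ± 0.0152% in controls and 1.38 ± 0.0188% with RBM25 (SD, n = 3). In bulk RNA, fewer cells of a type and less RNA per cell cannot be told apart.

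**Figure D2:**
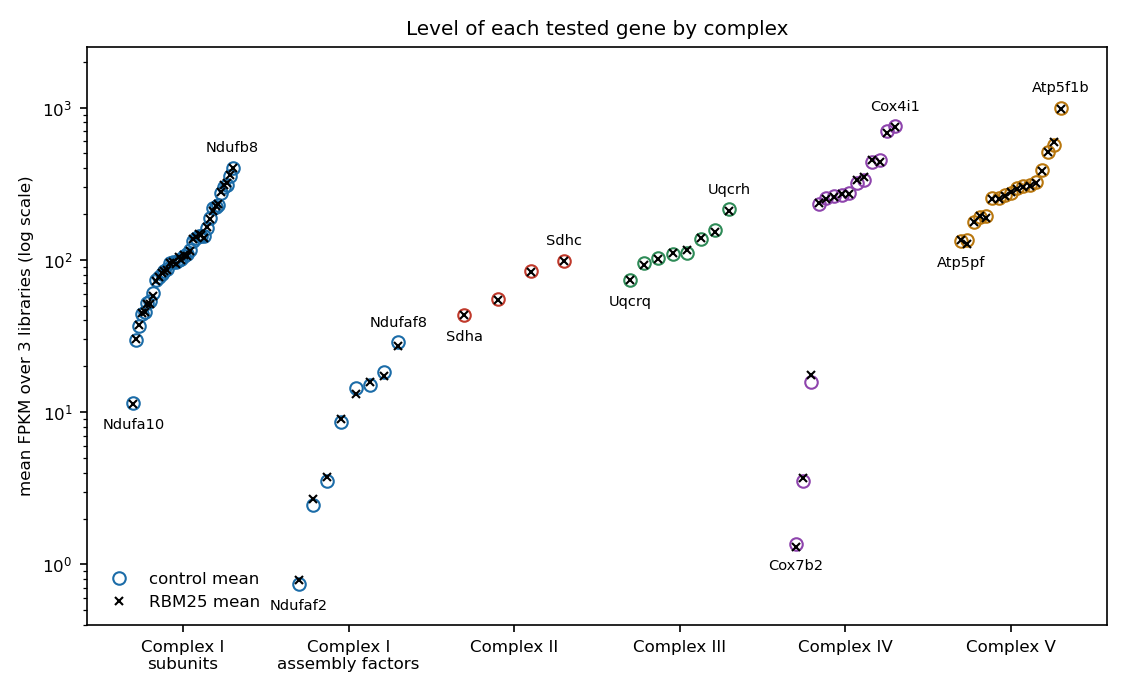
Mean FPKM over 3 libraries on a log axis for each tested gene, ordered by control level within each complex; circles are control means and crosses RBM25 means. The crosses sit in or near the circles throughout, complexes IV and V hold the most abundant genes (Atp5f1b at 1001 FPKM in controls), and 3 complex IV genes lie far below the rest of their complex.

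Complex I, which oxidises NADH, had 36 tested subunits, with a median log2 fold change of 0.011 (20 positive, 16 negative, range -0.068 to 0.058). These include Ndufa4, placed here by its name although it is now counted with complex IV. Their summed level was 3959, 4103 and 4032 CPM in the control libraries and 4072, 4107 and 3937 CPM in the RBM25 libraries, so the groups overlapped, and the means differed by 0.174%. The 7 core subunits carry the flavin, the iron-sulfur clusters and the quinone site, and they were at 29.7 FPKM (Ndufs1) to 110 FPKM (Ndufv1) in controls. Of these 7, 5 had a negative and 2 a positive fold change (median -0.024). The median was -0.0087 without RBM25 replicate 3 and -0.033 without RBM25 replicate 1. Ndufs3, a core subunit near the quinone site, was at 68.1, 69.5 and 68.8 CPM in controls and 66.7, 67.7 and 64.0 CPM with RBM25. Every RBM25 library was thus below every control library, but the difference of -3.82% did not pass (log2 fold change -0.056 ± 0.038 SE, edgeR adjusted p = 0.624).

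The 28 tested accessory subunits, which surround that core and stabilise it, were split 17 positive to 11 negative (median 0.018). The direction of this median depended on single libraries: without control replicate 1 it was -0.0015 with 11 of 29 positive, and without RBM25 replicate 2 it was -3.74e-04. Ndufa8, a subunit of the intermembrane space side, was at 104, 107 and 104 CPM in controls and at 108, 109 and 111 CPM with RBM25. The groups did not overlap, and the difference of 4.14% did not pass (log2 fold change 0.058 ± 0.033 SE, edgeR adjusted p = 0.54). Ndufb2, a small membrane-arm subunit, had the opposite order without overlap, with 71.9, 71.5 and 70.8 CPM in controls and 70.5, 67.8 and 68.4 CPM with RBM25. Ndufa13, also known as GRIM-19, was at 106, 117 and 112 CPM in controls and 105, 108 and 106 CPM with RBM25 (-0.068 ± 0.037 SE, edgeR adjusted p = 0.51), and its groups overlapped. Leaving out control replicate 2 gave a log2 fold change of -0.030, and leaving out control replicate 1 gave -0.10.

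The most abundant complex I subunits per length were Ndufb8 and Ndufb4, both of the membrane arm. Ndufb8 was at 402 ± 6.89 FPKM in controls and 398 ± 4.48 FPKM with RBM25 (SD, n = 3), and Ndufb4 at 353 ± 18.6 and 359 ± 8.14 FPKM. Ndufa10 was the lowest tested subunit at 11.4 FPKM, and its recovered length of 5.98 kb was the longest of the complex I subunits, so its low FPKM goes with a long gene model. Its CPM was 68.5 in controls and 67.7 with RBM25, similar to that of Ndufs3.

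The 8 assembly factors of the Ndufaf family, which build complex I but are not part of it, were far less abundant, with a median of 11.5 FPKM in controls against 103 FPKM for the complex I subunits. All 8 were tested and 0 passed; 5 had a positive and 3 a negative fold change. Ndufaf3 had the smallest p of the complex I genes. It was at 21.9, 22.1 and 22.9 CPM in controls and at 19.4, 20.3 and 22.1 CPM with RBM25 (log2 fold change -0.12 ± 0.064 SE, edgeR adjusted p = 0.505), with RBM25 replicate 3 inside the control range. Its log2 fold change was -0.074 without RBM25 replicate 1 and -0.17 without RBM25 replicate 3. Ndufaf5 did not overlap between groups (23.63, 25.6 and 24.3 CPM in controls, 23.61, 23.0 and 22.6 CPM with RBM25), but the nearest libraries differed only in the second decimal.

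Complex II, succinate dehydrogenase, had the lowest spread between replicates, with a median coefficient of variation of 1.36%. Its subunits were summed to 411, 413 and 405 CPM in controls and 407, 410 and 401 CPM with RBM25. Sdha, the flavoprotein, was at 43.7, 43.1 and 43.0 FPKM in controls and at 43.4, 42.8 and 43.6 FPKM with RBM25. Sdhb, the iron-sulfur subunit, was at 84.5, 84.7 and 85.3 FPKM in controls and 81.4, 85.1 and 83.3 FPKM with RBM25. Both catalytic subunits therefore overlapped between the groups. Of the membrane anchors that bind quinone and haem, Sdhc was at 98.6 ± 1.31 and 98.1 ± 1.38 FPKM, and Sdhd at 55.7 ± 1.26 and 54.8 ± 2.77 FPKM (SD, n = 3). Sdhd was lowest in RBM25 replicate 3, at 51.6 FPKM, and without that library its log2 fold change went from -0.023 to 0.023. All 4 fold changes were negative, from -0.027 to -6.70e-04, none of them beyond its standard error.

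Complex III, the cytochrome bc1 complex, had 8 tested subunits, 4 with a positive and 4 with a negative fold change (median -0.0035). Its cytochrome c1 (Cyc1) has no Uqcr name, so it is not among them and is given further below. Uqcrfs1, the Rieske iron-sulfur protein that takes electrons from ubiquinol, was at 162, 160 and 152 CPM in controls and 155, 160 and 155 CPM with RBM25. The core proteins Uqcrc1 and Uqcrc2 had opposite signs. Uqcrc1 was at 165, 168 and 153 CPM in controls and 163, 154 and 155 CPM with RBM25, while Uqcrc2 was at 216, 212 and 217.13 CPM in controls and 217.16, 219 and 219 CPM with RBM25. The Uqcrc2 groups did not overlap, but the nearest libraries differed only in the second decimal (log2 fold change 0.022 ± 0.031, edgeR adjusted p = 0.847). The small subunit Uqcrb, which binds near the quinone reduction site, had the smallest p of the complex, with 127, 128 and 122 CPM in controls and 130, 134 and 126 CPM with RBM25. Its log2 fold change of 0.050 was 0.030 without control replicate 3 or RBM25 replicate 2, and 0.069 without RBM25 replicate 3. Uqcrh, the acidic hinge protein beside cytochrome c1, was the most abundant at 215 ± 1.89 FPKM in controls and 209 ± 7.78 FPKM with RBM25, followed by Uqcr11, another small subunit, at 156 FPKM in controls.

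Complex IV, cytochrome c oxidase, had 16 genes, 14 of them tested, with a median log2 fold change of 0.0023 (7 positive, 7 negative). In controls the tested genes ranged from 1.36 FPKM (Cox7b2) to 755 FPKM (Cox4i1). Cox7b, a small membrane subunit encoded on the X chromosome, was at 162, 164 and 158 CPM in controls and 166, 177 and 165 CPM with RBM25. The groups did not overlap, and the 4.87% difference did not pass (log2 fold change 0.069 ± 0.034 SE, edgeR adjusted p = 0.453). Without RBM25 replicate 2, its highest library, the log2 fold change was 0.039, and without RBM25 replicate 1 it was 0.086. Cox7c, another small membrane subunit, showed the same order with less spread, at 167, 168 and 164 CPM in controls and 171, 173 and 173 CPM with RBM25 (0.048 ± 0.031 SE, edgeR adjusted p = 0.603).

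**Figure D3:**
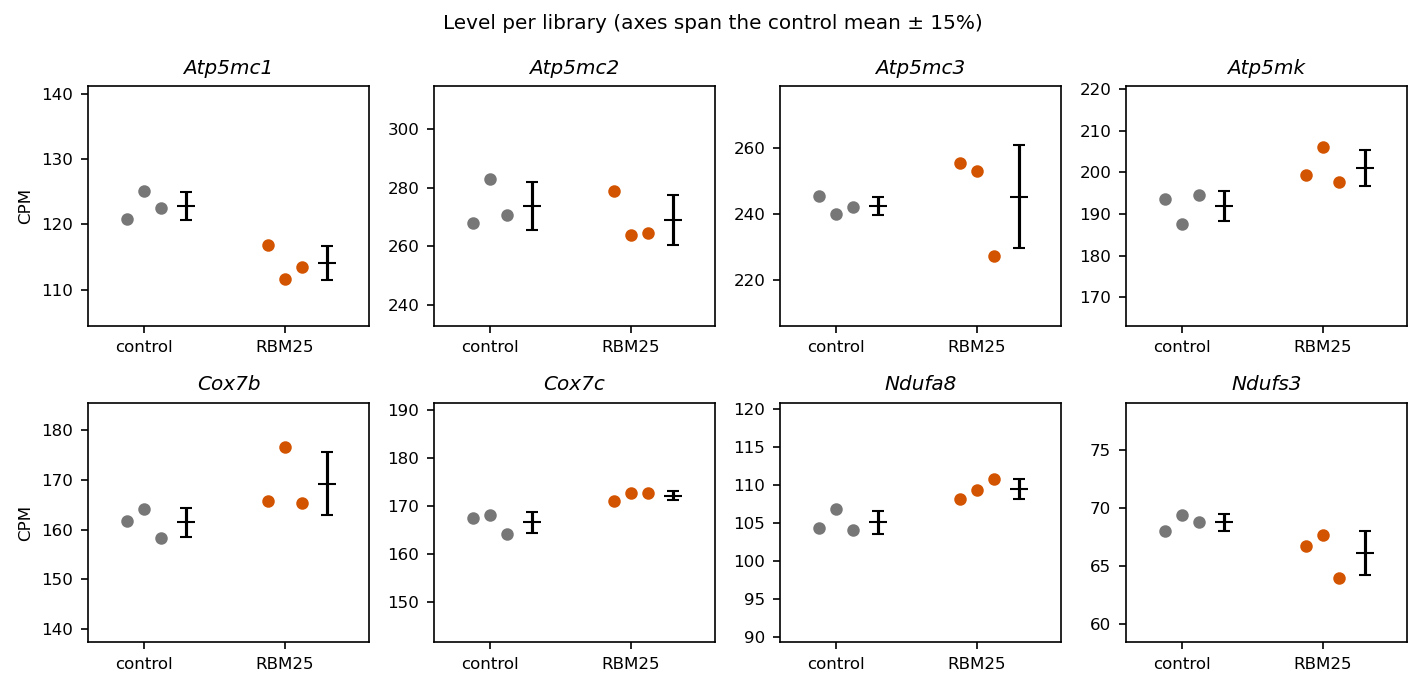
CPM in every library for 8 subunits, with the mean and SD of each group of 3 in black; each vertical axis spans the same share of the control mean and does not start at 0. The groups do not overlap for Atp5mc1, Atp5mk, Cox7b, Cox7c, Ndufa8 and Ndufs3 and overlap for Atp5mc2 and Atp5mc3, and the differences in means are at most 7.19% of the control mean. The 8 were picked with their values known and do not represent the members. Of the 87 tested members 10.3% did not overlap (5 higher, 4 lower), against 16.2% of all tested genes.

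Where complex IV subunits exist in paired forms, H9C2 cells used the widespread form. Cox4i1 and Cox6a1, the most abundant nuclear-encoded genes of the complex, were at 755 ± 17.5 and 697 ± 14.6 FPKM in controls and at 749 ± 9.27 and 684 ± 12.4 FPKM with RBM25 (SD, n = 3). Cox4i1 had 14218 to 18739 reads per library, whereas Cox4i2, a form linked to lung and low oxygen, had 0 or 1 read. Cox8a was at 451 ± 11.6 FPKM in controls and 440 ± 8.54 FPKM with RBM25, and the muscle form Cox8b had 2, 5 and 7 reads in controls and 3, 3 and 8 reads with RBM25. The exception in degree was Cox6a2, the heart and skeletal muscle form of subunit 6a, which was measurable at 14.6, 18.3 and 14.3 FPKM in controls and 16.4, 15.3 and 20.8 FPKM with RBM25. It made up 2.20 ± 0.253% of the Cox6a1 and Cox6a2 level in controls and 2.5 ± 0.448% with RBM25 (SD, n = 3), and the groups overlapped. Its log2 fold change of 0.15 ± 0.11 (SE) did not pass (edgeR adjusted p = 0.679), and without single libraries it ranged from 0.019 to 0.27. In bulk RNA, a few cells with high Cox6a2 and a low level in all cells likewise look the same.

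For Cox6b1 and Cox7a2 no partner was listed under its usual symbol. Cox6b1 was at 256 ± 3.17 FPKM in controls and 251 ± 14.3 FPKM with RBM25, and Cox7a2 at 233 ± 3.64 and 238 ± 8.01 FPKM. The muscle form of Cox7a was not listed under the symbol Cox7a1; a gene described as similar to it, LOC687508, had 24, 12 and 25 reads in controls and 25, 34 and 24 reads with RBM25. Cox7a2l, which helps join complexes III and IV into supercomplexes, was at 262 ± 2.71 and 259 ± 1.16 FPKM. Ndufa4, which carries a complex I name but is now counted as a complex IV subunit, was at 221 ± 2.01 and 224 ± 4.41 FPKM, and its hypoxia-inducible relative Ndufa4l2 had 4 to 7 reads per library.

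By transcript level of the nuclear-encoded subunits, complex V had a median of 277 FPKM in controls over 17 tested genes, against 270 FPKM for complex IV over 14. The complex IV median takes in the low Cox6a2, Cox7a2l2 and Cox7b2 (15.7, 3.54 and 1.36 FPKM). The order of these 2 complexes depends on counting those genes. The summed level of complex V was 5445, 5537 and 5460 CPM in controls and 5480, 5486 and 5289 CPM with RBM25. Of its genes 5 had a positive and 12 a negative fold change (median -0.016). Atp5f1b, the catalytic beta subunit, was the most abundant member of all, at 996, 1010 and 996 FPKM in controls and 994, 988 and 965 FPKM with RBM25. Its partner in the catalytic ring, the alpha subunit Atp5f1a, was at 540, 538 and 531 CPM in controls and 531, 534 and 507 CPM with RBM25. All 5 genes of the F1 part (Atp5f1a to Atp5f1e) had negative fold changes, between -0.033 and -0.016. The median of the 5 differed from the control mean by -0.013 and -0.0066 in RBM25 replicates 1 and 2 and by -0.082 in replicate 3. Without RBM25 replicate 3 the median fold change was -0.0035, with 4 of 5 negative, and without RBM25 replicate 1 it was -0.037.

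The c ring is the rotor that protons turn. Atp5mc1, Atp5mc2 and Atp5mc3 encode the same mature c subunit behind different import sequences. Atp5mc1 was at 120.9, 125.1 and 122.5 CPM in controls and 116.8, 111.7 and 113.5 CPM with RBM25. All RBM25 libraries lay below all controls, the mean difference was -7.19%, and the log2 fold change was -0.11 ± 0.033 (SE, 95% interval -0.18 to -0.039; unadjusted p = 0.00338, edgeR adjusted p = 0.17). Without single libraries it ranged from -0.12 to -0.090. Atp5mc2 was at 268, 283 and 271 CPM in controls and 279, 264 and 264 CPM with RBM25, and Atp5mc3 at 245, 240 and 242 CPM in controls and 255, 253 and 227 CPM with RBM25, both with overlap. The 95% intervals of all 3 log2 fold changes overlapped (-0.095 to 0.044 for Atp5mc2, -0.061 to 0.095 for Atp5mc3), and a difference between the genes was not tested. Atp5mc1 supplied 18.7, 19.0 and 19.0% of the summed c subunit FPKM in controls and 17.6, 17.5 and 18.4% with RBM25, while Atp5mc2 supplied a mean of 42.7% and 42.6%.

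Elsewhere in complex V, Atp5mk, a small membrane subunit also called DAPIT, had the second smallest p of all members. It was at 194, 188 and 195 CPM in controls and 199, 206 and 198 CPM with RBM25, higher in each RBM25 library by a mean of 4.74% (log2 fold change 0.067 ± 0.032 SE, unadjusted p = 0.0477, edgeR adjusted p = 0.439). Its recovered length was 0.339 kb, and with the correction for gene length its log2 fold change was 0.040. The 4 genes of the peripheral stalk, which holds F1 still against the rotor, were divided 2 to 2, and summed to 926 ± 6.52 and 927 ± 14.0 CPM (SD, n = 3). Atp5if1, the inhibitor that blocks ATP hydrolysis by F1, was at 256 ± 7.81 FPKM in controls and 250 ± 8.12 FPKM with RBM25.

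Seen by library rather than by gene, the median over the subunits varied by small amounts that did not follow the plasmid. The median log2 difference from the control mean over the 79 tested subunits was -0.015, 0.023 and -0.0079 in control replicates 1, 2 and 3 and 0.0070, 0.021 and -0.035 in RBM25 replicates 1, 2 and 3. RBM25 replicate 3, the library that stood apart, was the lowest for each of the 5 complexes. Control replicate 2 was the highest control for each of them. For complex II both were near ties. RBM25 replicate 3 was at -0.0189 there and control replicate 3 at -0.0181, while control replicates 2 and 1 were at 0.0055 and 0.0044. Without RBM25 replicate 3, 46 of 79 subunits had a positive fold change (median 0.0075), and without control replicate 2 it was 43 of 79 (median 0.0057). In either fit 0 members passed. Of all tested genes 352 of 13098 passed without RBM25 replicate 3, but only 5 of 13147 without control replicate 2. With so few calls, the 0 without control replicate 2 says little about the members.

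**Figure D4:**
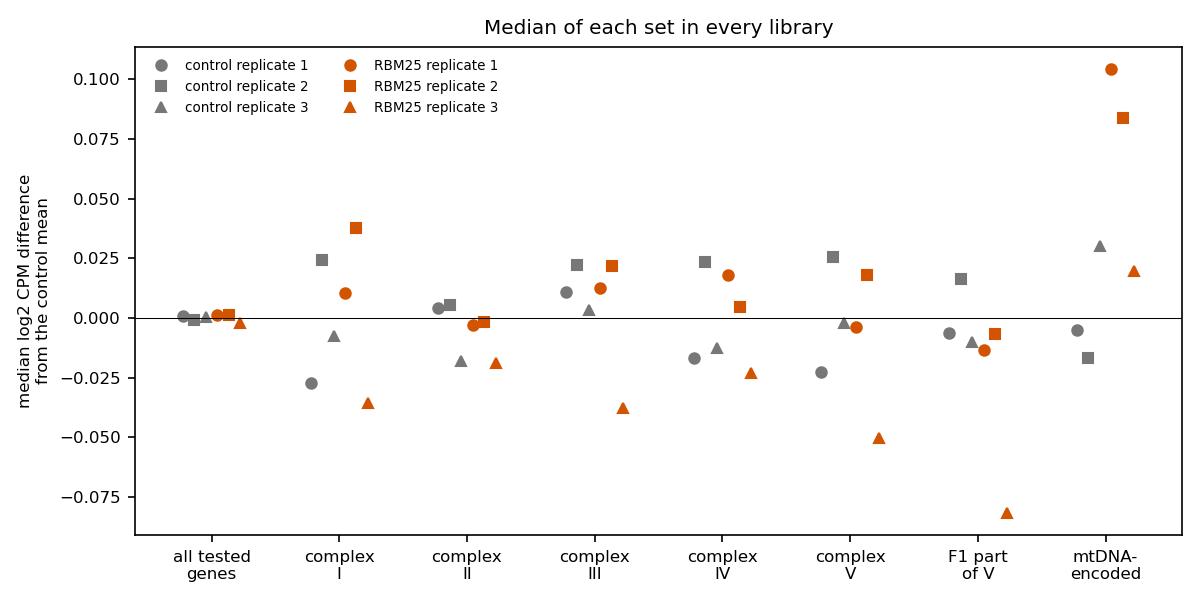
Median log2 CPM difference from the control mean in each of the 6 libraries, over all tested genes, the subunits of each complex, the F1 genes of complex V and the 13 mitochondrially encoded subunits. Gray marks are controls and orange marks RBM25 libraries, with the shape giving the replicate; the 2 groups overlap in each nuclear-encoded set, and RBM25 replicate 3 (triangles) is lowest, at -0.082 for F1.

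The subunits made from mitochondrial DNA are the partners of these proteins in 4 of the complexes. Of the 13, 1 was called (ND2, higher), and of the 79 nuclear-encoded subunits 0. Of all tested genes 0.404% were called, so these counts do not set the 2 sets apart. The groups did not overlap for 46.2% of the 13 (5 higher, 1 lower) and 10.1% of the 79 (5 higher, 3 lower). For all tested genes it was 16.2%. The median log2 fold change was 0.073 for the 13 and -0.0061 for the 79. The difference between the sets was not tested. The mitochondrially encoded level was 3.59, 3.48 and 3.620 times the summed nuclear-encoded level in controls and 3.70, 3.64 and 3.615 times with RBM25. The ratio was lowest in control replicate 2 and the groups overlapped, since RBM25 replicate 3 was below control replicate 3.

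Genes outside the choice by symbol that serve the chain, nearly all without being subunits, were examined as short lists. Of 17 tested complex I assembly factors (the 8 of the Ndufaf family among them), 4 of complex II, 8 of complex III, 23 of complex IV and 4 of complex V, 0 passed. Of all tested genes 0.404% passed, so lists this short would seldom hold a called gene. The genes with the smallest p in each list were Tmem186 (log2 fold change -0.15, edgeR adjusted p = 0.493), Sdhaf3 (-0.087, 0.872), Smim4, a synonym of Uqcc5 (0.17, 0.397), Pet100 (-0.11, 0.469) and Tmem70 (0.11, 0.56). Cytochrome c (Cycs) was at 173 CPM in controls and 176 CPM with RBM25, and cytochrome c1 (Cyc1) at 159 and 157 CPM. Cyc1 is itself a complex III subunit, which the choice by symbol left out. Hccs, which attaches haem to both cytochromes, had the smallest p of that list (0.10, edgeR adjusted p = 0.58).

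Coenzyme Q, the carrier between complexes I, II and III, is made by the Coq enzymes. Of 13 tested genes for its synthesis 0 passed, 4 had a positive and 9 a negative fold change, and the median was -0.053. Coq6, a ring hydroxylase of the pathway, was at 23.9, 23.0 and 22.8 CPM in controls and at 20.4, 19.6 and 19.2 CPM with RBM25, with no overlap (log2 fold change -0.23 ± 0.061 SE, edgeR adjusted p = 0.0898). Among 14 genes of the tricarboxylic acid cycle, which feeds the chain, 0 passed, 11 had a negative fold change and the median was -0.019. Idh2, the mitochondrial NADP-linked isocitrate dehydrogenase, had the smallest p of them (-0.074, edgeR adjusted p = 0.372). Of all tested genes 48.8% had a positive fold change (median -0.0021), and the direction of either list was not tested.

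Regulators of respiratory genes did not pass either. The coactivator Ppargc1a, prominent in heart and muscle, had 1 to 5 reads per library and was not tested. Its relative Pprc1 (70.6 and 72.2 CPM in controls and RBM25 libraries), the nuclear receptor Esrra (63.3 and 61.6 CPM) and the factors Nrf1 (27.1 and 26.1 CPM) and Gabpa (30.5 and 32.5 CPM), which bind many respiratory gene promoters, were expressed. The smallest p among the 9 tested regulators was that of Ppara, with 7 to 11 reads per control library and 18 to 21 per RBM25 library (log2 fold change 0.90 ± 0.36 SE, edgeR adjusted p = 0.325). Of 13 genes for transcription and upkeep of mitochondrial DNA, 11 had a positive fold change (median 0.039) and 0 passed. Of all tested genes 48.8% were positive (median -0.0021). The groups did not overlap for 7.69% of the 13, against 16.2% of all tested genes, and the direction of the list was not tested. Tfb1m had the smallest p of the list (0.099, edgeR adjusted p = 0.63).

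The 7 members that were not tested had few reads. These were Ndufa10l1, Ndufa13-ps1, Ndufs6, Ndufa4l2, Cox4i2, Cox8b and Atp5hl1, with 0 to 13 reads in any library. Ndufs6, an accessory subunit of the NADH-oxidising part of complex I, had 4 reads in the 3 control libraries on a row placed on chromosome 2, whereas LOC679739 on chromosome 1, described with the same protein name, had 1931 to 2365 reads per library (74.4 ± 1.32 CPM in controls, 74.0 ± 2.56 CPM with RBM25; SD, n = 3). Cox5a likewise had a second row, LOC100361008, at 44.9 ± 2.57 and 46.6 ± 3.76 CPM, beside 174 and 175 CPM for Cox5a itself. How reads were divided between such similar copies is not stated in the labels, so the levels of Ndufs6, Cox5a and Ndufb4, which has further copies, are uncertain. Ndufb1 was outside the choice because its row is typed as a long non-coding RNA; it was at 43.0, 41.7 and 40.5 CPM in controls and 42.4, 40.1 and 37.5 CPM with RBM25, and the groups overlapped.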

How the data were processed

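Poly(A) RNA was sequenced in 6 libraries made with a stranded kit, per the labels' protocols. The deposited counts are whole reads per gene, not normalized, and the deposited FPKM values are rounded to 2 decimals. The submitters' processing notes name HISAT2 and DESeq2 as tools and mRatBN7.2 as the build; for the counting program, annotation and strand setting nothing is given in the sources used here.

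Counts were tested with edgeR 4.0.16 (R 4.3.3) on all genes kept by filterByExpr (minimum count 10), with TMM scaling, a robust quasi-likelihood fit on group, and Benjamini-Hochberg adjustment. SE is the size of the log2 fold change divided by the square root of F; 95% intervals use the fit's degrees of freedom. CPM are TMM-scaled. Gene length here means the length used in FPKM, recovered as counts over FPKM and depth. DESeq2 1.42.0 and limma 3.58.1 served as alternatives, and scripts were tested on simulated data.

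Members and lists were chosen with earlier results of these data known. Of 172 list entries, 157 matched a symbol, 2 a RefSeq synonym (GRCr8 table, names only) and 13 none. Named by rule were, per complex, the 3 genes with the smallest p (2 for complex II), the 2 with the highest FPKM and paired isoforms, and per other list the gene with the smallest p; others were named after their values were seen.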

Additional observations from a re-analysis of the deposited data

How the results depend on the processing

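The count of called members stayed at 0 in all fits except those with the replicate number as a block. The same-numbered libraries did not deviate together (correlations of 0.10, -0.084 and 0.010), so the numbers are not taken as pairs. With the replicate block 1 member was called, Atp5mc1 (log2 fold change -0.11, edgeR adjusted p = 0.0223), and 436 genes in all; with the block and a length correction it was again Atp5mc1 alone (-0.11, adjusted p = 0.0264), and 363 genes. The count of all called genes was 52, and 205 with no filter, 4, 2 and 6 on FPKM by limma-trend (pseudocount 0.1, pseudocount 1, no filter), 102 without both control replicate 2 and RBM25 replicate 3, and 5 (without control replicate 2) to 352 (without RBM25 replicate 3) without single libraries, with 21 without control replicate 3. Rbm25 was not called on FPKM (log2 fold change 0.30, 0.28 and 0.30; limma-trend adjusted p = 0.213, 0.239 and 0.381), nor without control replicate 2 (range without single libraries 0.27 to 0.35). Sdhd ranged from -0.047 to 0.023 without single libraries, turning from -0.023 to 0.023 without RBM25 replicate 3, and was at 0.043 without both that library and control replicate 2. The cause of these shifts was not tested. Without single libraries the complex medians ranged from -0.0048 to 0.025 (I), -0.023 to -0.0013 (II), -0.017 to 0.0075 (III), -0.017 to 0.020 (IV) and -0.027 to 2.29e-04 (V). The 7 untested genes had 0 to 13 reads in any library; Cox7a2l2 and Cox7b2 had 29 to 67.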
